A study of Mus musculus with 12 samples.

Results

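The genes of sterol and fatty acid synthesis were followed in ImPSC-1 cells, mouse pancreatic stellate cells that were immortalised and that the labels class as pancreatic mesenchymal cells. The rows of the count table were taken whose gene name was one of 34 listed genes, and all 34 were found among 49671 gene entries. They hold 7 genes of the mevalonate steps, 11 genes of the later sterol steps, 9 genes of fatty acid synthesis and desaturation, 4 regulators of the SREBP factors and 3 genes of sterol transport. All 34 passed the filter on low counts that left 15271 genes for testing. Stable derivatives of ImPSC-1 made up 4 groups of 3 libraries. Kitl_OE cells overexpressed Kitl, and Egfp_OE cells, their control, overexpressed Egfp. The shKitl cells carried a hairpin against Kitl, and shCtrl cells, their control, are labelled WT in genotype and PLKO-1 in description. The Kitl product, stem cell factor, binds and activates the receptor KIT. The labels do not say whether a derivative was a clone or a pool, which promoter drove a transgene, or whether the replicates were grown apart. The p-values therefore measure the spread between these libraries, which may be technical. All groups grew in the same medium with fetal bovine serum, which itself brings lipoproteins.

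Cells make cholesterol from acetyl-CoA through mevalonate and farnesyl diphosphate, which squalene synthase turns into the first committed sterol precursor, and they make fatty acids from the same acetyl-CoA through malonyl-CoA. SREBP-2, the product of Srebf2, is best known for driving the sterol genes, and SREBP-1, the product of Srebf1, for driving the fatty acid genes. Both are held in the endoplasmic reticulum by SCAP and INSIG proteins while sterols are plentiful, and both act on promoters together with the CCAAT-binding factor NF-Y. In the pancreas, quiescent stellate cells are known for their lipid droplets, which they lose on activation.

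The promoters of 5 members are shown to give examples of both branches and of each outcome of the motif search: Hmgcs1, Pmvk and Sc5d of the sterol branch, and Fasn and Fads2 of the fatty acid branch. Each runs from 250 bases before to 50 bases after the RefSeq start on GRCm38.p6, 5′ to 3′ along the gene's own strand. Capitals mark 3 motifs, each searched on both strands. They are the NF-Y box, which reads CCAAT. They include the E-box, which reads CACGTG. The last is the sterol response element, which reads TCACNCCAC. Hmgcs1 lies at chr13:119690101-119690400 (plus strand), Pmvk at chr3:89454291-89454590 (plus strand), Sc5d at chr9:42264251-42264550 (minus strand), Fasn at chr11:120824498-120824797 (minus strand) and Fads2 at chr19:10101454-10101753 (minus strand).
Hmgcs1: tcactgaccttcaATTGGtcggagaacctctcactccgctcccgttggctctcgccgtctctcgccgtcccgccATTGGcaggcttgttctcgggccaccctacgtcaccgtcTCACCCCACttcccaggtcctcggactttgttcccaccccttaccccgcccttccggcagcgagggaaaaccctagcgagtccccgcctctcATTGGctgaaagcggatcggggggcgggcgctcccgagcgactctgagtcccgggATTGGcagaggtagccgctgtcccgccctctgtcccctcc
Pmvk: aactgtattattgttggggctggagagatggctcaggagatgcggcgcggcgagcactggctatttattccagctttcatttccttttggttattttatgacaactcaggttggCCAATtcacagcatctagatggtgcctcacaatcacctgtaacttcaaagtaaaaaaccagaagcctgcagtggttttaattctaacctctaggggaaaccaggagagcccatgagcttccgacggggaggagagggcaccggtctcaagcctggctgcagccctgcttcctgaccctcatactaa
Sc5d: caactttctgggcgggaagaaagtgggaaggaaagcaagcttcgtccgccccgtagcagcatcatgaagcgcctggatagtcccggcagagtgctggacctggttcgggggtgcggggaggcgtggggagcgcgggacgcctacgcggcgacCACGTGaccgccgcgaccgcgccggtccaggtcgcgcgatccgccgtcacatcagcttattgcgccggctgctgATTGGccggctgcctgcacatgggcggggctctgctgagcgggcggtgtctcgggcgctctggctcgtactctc
Fasn: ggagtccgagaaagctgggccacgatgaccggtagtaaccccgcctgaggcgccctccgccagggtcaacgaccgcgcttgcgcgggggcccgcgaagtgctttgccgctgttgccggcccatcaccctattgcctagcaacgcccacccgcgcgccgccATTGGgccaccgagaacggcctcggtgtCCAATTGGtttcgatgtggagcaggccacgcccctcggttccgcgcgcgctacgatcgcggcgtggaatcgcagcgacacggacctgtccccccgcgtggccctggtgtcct
Fads2: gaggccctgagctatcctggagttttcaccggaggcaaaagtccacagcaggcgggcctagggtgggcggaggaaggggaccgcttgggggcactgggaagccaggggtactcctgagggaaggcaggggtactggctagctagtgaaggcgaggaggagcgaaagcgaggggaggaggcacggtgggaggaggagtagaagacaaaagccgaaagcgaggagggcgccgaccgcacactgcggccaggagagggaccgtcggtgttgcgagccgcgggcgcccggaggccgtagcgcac

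Promoters were in the RefSeq table for 26 of the 34 members; Stard4, Fdft1, Scd1, Sqle, Scd2, Fads1, Abcg1 and Fdps were not matched. A CCAAT box stood in at least 1 promoter of 14 of the 15 sterol synthesis genes matched (93.3%), of 3 of the 6 fatty acid genes matched and of 41.1% of all 27018 genes in the table. Some windows lay at starts inside the annotated gene. Me1 and Dhcr7 had CCAAT boxes only in such a window, and Acaca had only such a window, without a box. The Hmgcs1 promoter held 4 CCAAT boxes and the sequence TCACCCCAC, which was the only match to the sterol response element among the 26 members, against 1.44% of all genes. The Fasn promoter held 3 CCAAT boxes, of which a neighbouring pair overlaps in the run CCAATTGG, read on opposite strands. The Sc5d promoter held an E-box, as did those of 6 members in all (23.1%) and of 8.09% of all genes. The Pmvk promoter shown held 1 CCAAT box and the Fads2 promoter had no match. These matches describe letters in a window and were not tested as binding sites.

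Library depth ran from 24979742 to 33517686 counts in genes. Kitl itself went with the labels: it stood at 125, 114 and 128 CPM (counts scaled to library size, with edgeR's TMM factors) in Kitl_OE replicates 1, 2 and 3, against 72.5, 31.8 and 72.3 CPM in the Egfp_OE replicates. In shKitl libraries it stood at 25.1, 25.5 and 30.3 CPM, against 73.5, 73.6 and 76.4 CPM in shCtrl. Kit, which encodes the receptor, reached at most 0.0658 CPM in any library.

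Egfp_OE replicate 2 stood apart from the other libraries. ERCC spike-in RNA took 1.35% of its reads in genes and spikes, against 0.446% to 0.684% in the other 11 libraries. Its levels moved with gene length: of 5 equal groups of genes by exonic length, its median log2 difference from the other Egfp_OE libraries was 0.78 in the group of shortest genes and -0.61 in that of the longest. Members shifted there too. The median log2 difference of Egfp_OE replicate 2 from its group was 0.67 for the mevalonate genes (median exonic length 2675 bases) and -0.84 for the fatty acid genes (5279 bases). It was 0.10 for the later sterol genes (4866 bases), -0.10 for the regulators (6409 bases) and -0.48 for the transport genes (7298 bases). Length did not order all members: Idi1 (3505 bases) was at -1.53 and Fads2 (3295 bases) at -1.37, against 1.44 for Fdps (4208 bases). Acaca, the longest member at 17074 bases, stood at 55.3 CPM in Egfp_OE replicate 2 and at 192 and 188 CPM in replicates 1 and 3. The calls against Egfp_OE are therefore given with all libraries and again without this one, and the part of gene length in the members' differences was not tested.

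**Figure D1:**
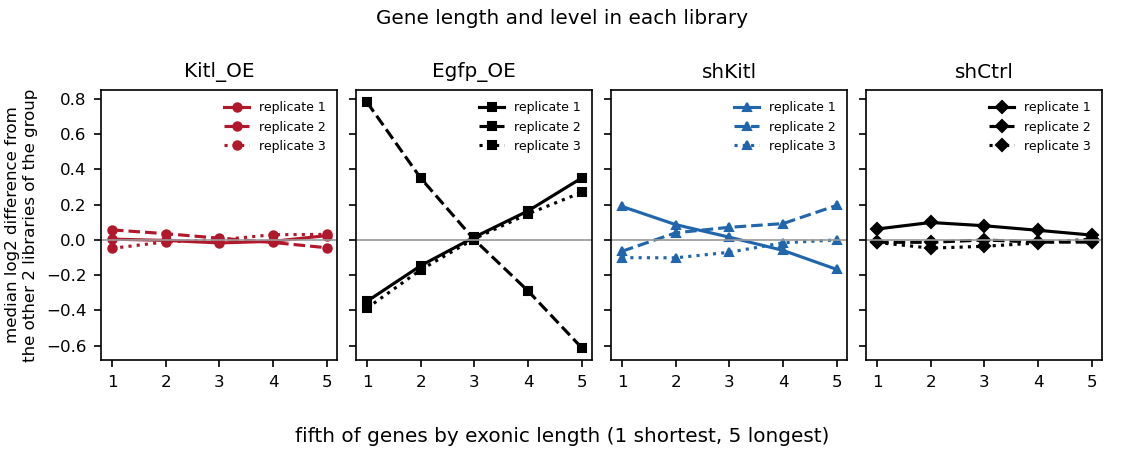
Median log2 difference of each library from the other 2 of its group (y axis), in 5 equal groups of the tested genes by exonic length (x axis, shortest to longest), for 4 groups of 3 libraries. Egfp_OE replicate 2 lies at 0.78 for the shortest genes and at -0.61 for the longest, while the libraries of the other 3 groups stay nearer 0.

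Compared per gene length in TPM (counts scaled for gene length and library size by the authors), Scd2 was the most abundant member in every group. This stearoyl-CoA desaturase gene averaged 564 ± 84.9 TPM in Kitl_OE, 814 ± 289 TPM in Egfp_OE, 868 ± 110 TPM in shKitl and 563 ± 214 TPM in shCtrl (SD, n = 3 each). Group means were 233 to 492 TPM for Fads2, 234 to 406 TPM for Fads1 and 177 to 357 TPM for Acly. Among the sterol genes Cyp51 had the highest level in every group, with group means of 143 to 261 TPM. At the low end Tm7sf2 averaged 3.24 to 9.98 TPM over the groups, and Abcg1 never averaged above 2.97 TPM.

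The first question was how the branches differed when Kitl was overexpressed. Of the 18 sterol synthesis genes, 10 fell in Kitl_OE cells relative to Egfp_OE cells and none rose, with a median log2 fold change of -0.67. Fatty acid synthesis was divided, with Acly, Fasn, Me1 and Elovl6 lower and Fads2 higher (median -0.49 over 9 genes). Of the regulators, Srebf2 fell and Srebf1, Scap and Insig1 did not pass the test. Over all 34 members 15 were lower and 1 was higher by edgeR's quasi-likelihood test at an adjusted p under 0.05. Over all genes tested 34.3% were called, 18.9% lower and 15.4% higher, with a median log2 fold change of -0.07. Libraries did not overlap between Kitl_OE and Egfp_OE for 15 members that were lower and 2 that were higher, against 25.6% and 24.9% of all genes. Log2 fold changes were below 0 for 27 of 34 members, against 53.7% of all genes.

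**Figure D2:**
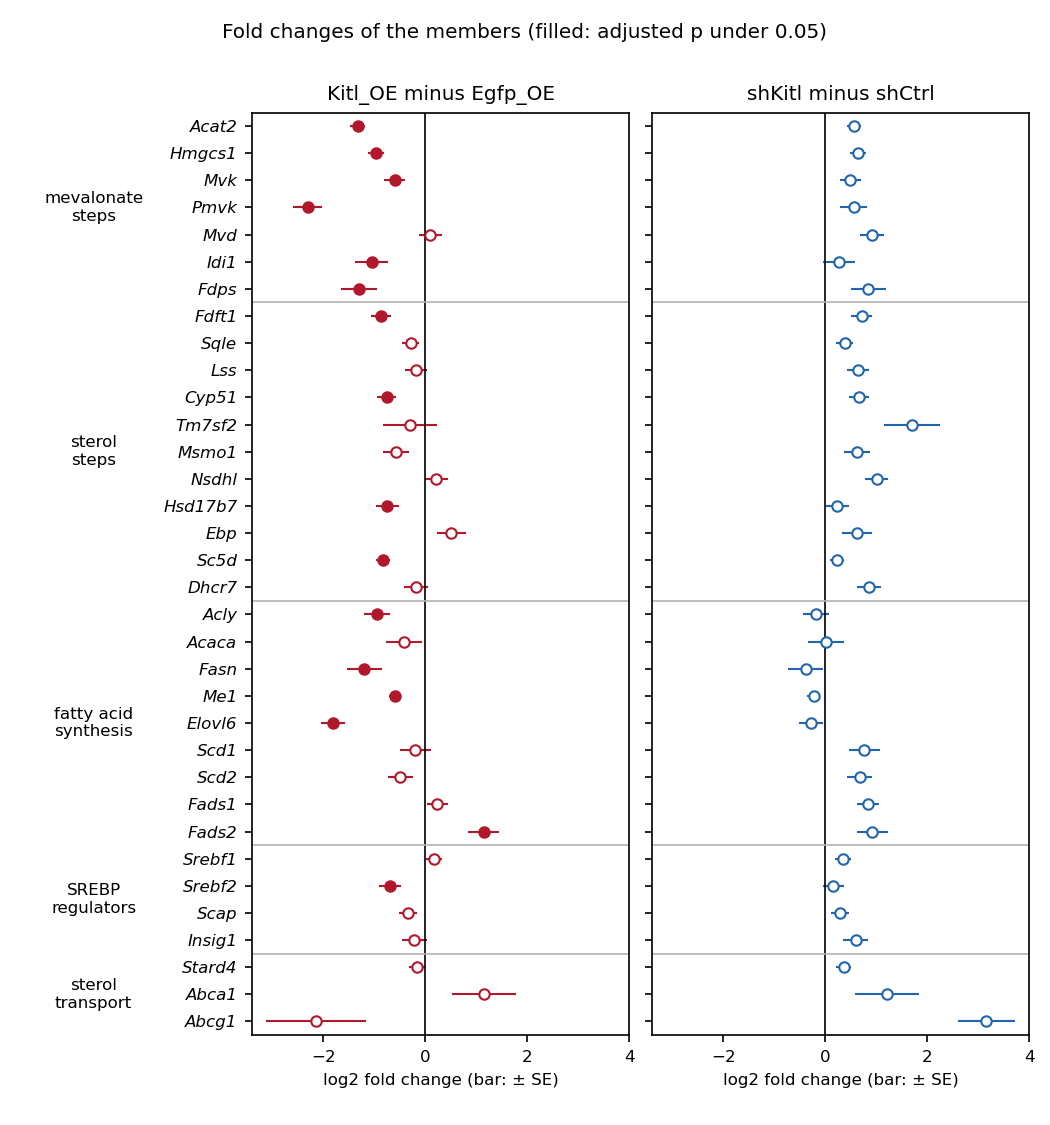
Log2 fold change ± SE (x axis) of each member (rows, by role) in Kitl_OE minus Egfp_OE (left) and shKitl minus shCtrl (right), from edgeR with 3 libraries a group; filled points passed an adjusted p of 0.05. On the left 15 filled points lie below 0 and Fads2 lies above it; on the right no point is filled and all 18 sterol synthesis genes lie above 0.

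The mevalonate steps held 6 of the 10 sterol genes that fell. Acat2 encodes the cytosolic thiolase that joins acetyl-CoA units. It had 68.9, 70.8 and 67.1 CPM in Kitl_OE, against 161, 194 and 165 CPM in Egfp_OE. The groups were far apart: Kitl_OE stood at 39.8% of the Egfp_OE level (log2 -1.33, SE 0.144, edgeR adjusted p = 6.29e-05). Acat2 has a close copy, Acat3, so reads shared by both could be split. Hmgcs1, the HMG-CoA synthase whose promoter holds the TCACCCCAC sequence, had 129, 130 and 111 CPM in Kitl_OE, against 267, 227 and 229 CPM in Egfp_OE. It too was without overlap, at 51.1% of the Egfp_OE level (log2 -0.97, SE 0.158, edgeR adjusted p = 0.000896).

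Pmvk, the kinase that adds the second phosphate to mevalonate, gave the largest fall of the 34 members among those called. It had 7.28, 7.73 and 7.58 CPM in Kitl_OE, against 29.7, 57.3 and 25.1 CPM in Egfp_OE. Kitl_OE stood at 20.2% of the Egfp_OE level (log2 -2.31, SE 0.279, edgeR adjusted p = 0.000138), and the log2 fold change was -1.85 without Egfp_OE replicate 2. Fdps, the farnesyl diphosphate synthase, had 79.1, 87.0 and 65.2 CPM in Kitl_OE, against 121, 326 and 120 CPM in Egfp_OE. Its size rested largely on Egfp_OE replicate 2: the log2 fold change was -1.29 with that library (edgeR adjusted p = 0.0149) and -0.63 without it (edgeR adjusted p = 0.0301). Idi1, the isomerase of isopentenyl diphosphate, went the other way in that library. It had 28.0, 28.9 and 26.4 CPM in Kitl_OE, against 73.9, 25.4 and 73.3 CPM in Egfp_OE. Its log2 fold change was -1.05 with all libraries (edgeR adjusted p = 0.0252) and -1.39 without Egfp_OE replicate 2 (edgeR adjusted p = 0.000132). The mevalonate kinase gene Mvk was called only with that library, at a log2 fold change of -0.60 (edgeR adjusted p = 0.0427), against -0.31 without it (edgeR adjusted p = 0.127). Mvd, the decarboxylase that yields isopentenyl diphosphate, averaged 64.8 ± 10.5 CPM in Kitl_OE and 60.6 ± 17.4 CPM in Egfp_OE (SD, n = 3 each) and did not pass the test.

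Of the 11 later sterol genes 4 fell. Sc5d, the C5 desaturase, was the steadiest of them. It had 92.3, 93.1 and 87.1 CPM in Kitl_OE, against 161, 170 and 156 CPM in Egfp_OE. Each group kept within a narrow range, and Kitl_OE stood at 55.9% of the Egfp_OE level (log2 -0.84, SE 0.138, edgeR adjusted p = 0.000938). Fdft1, the squalene synthase, had 74.4, 82.6 and 58.2 CPM in Kitl_OE, against 117, 164 and 112 CPM in Egfp_OE (log2 -0.87, SE 0.198, edgeR adjusted p = 0.00625). Cyp51, the lanosterol demethylase, had 221, 236 and 202 CPM in Kitl_OE, against 345, 482 and 288 CPM in Egfp_OE (log2 -0.76, SE 0.191, edgeR adjusted p = 0.0103). Both were without overlap. Hsd17b7, the 3-ketosterol reductase, had 42.1, 45.1 and 40.9 CPM in Kitl_OE, against 86.2, 53.2 and 75.2 CPM in Egfp_OE (log2 -0.74, SE 0.226, edgeR adjusted p = 0.0246).

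The other 7 sterol genes did not pass the test, and their groups overlapped. Log2 fold changes were -0.29 for the squalene epoxidase gene Sqle, -0.18 for the lanosterol synthase gene Lss, -0.57 for the methylsterol monooxygenase gene Msmo1 and -0.18 for Dhcr7, which encodes the last reductase of the pathway. They were -0.30 for the C14 reductase gene Tm7sf2 and 0.22 for Nsdhl, whose product removes the C4 methyl groups. Ebp, the sterol isomerase, had 93.2, 108 and 83.8 CPM in Kitl_OE, against 51.3, 102 and 47.1 CPM in Egfp_OE. Its Kitl_OE libraries lay above Egfp_OE replicates 1 and 3 only, and the log2 fold change was 0.51 with all libraries (edgeR adjusted p = 0.194) and 0.97 without Egfp_OE replicate 2 (edgeR adjusted p = 0.00651).

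In the fatty acid branch 4 of 9 genes were lower in Kitl_OE (Fasn, Acly, Elovl6 and Me1). Fasn, the fatty acid synthase, had 312, 331 and 344 CPM in Kitl_OE, against 904, 322 and 1038 CPM in Egfp_OE. The groups overlapped through Egfp_OE replicate 2 alone, and the log2 fold change was -1.20 with it (SE 0.348, edgeR adjusted p = 0.0203) and -1.55 without it (edgeR adjusted p = 0.000309). Acly, the enzyme that releases cytosolic acetyl-CoA from citrate, had 333, 325 and 315 CPM in Kitl_OE, against 739, 350 and 794 CPM in Egfp_OE. Its log2 fold change was -0.95 with all libraries (edgeR adjusted p = 0.0146) and -1.23 without Egfp_OE replicate 2 (edgeR adjusted p = 0.000163). Elovl6, the elongase of palmitate, had 30.8, 28.2 and 34.3 CPM in Kitl_OE, against 132, 71.9 and 125 CPM in Egfp_OE. The groups did not overlap and Kitl_OE stood at 28.4% of the Egfp_OE level (log2 -1.82, SE 0.237, edgeR adjusted p = 0.000222). Me1, the malic enzyme that supplies NADPH, had 129, 120 and 130 CPM in Kitl_OE, against 193, 202 and 179 CPM in Egfp_OE (log2 -0.60, SE 0.125, edgeR adjusted p = 0.00386). Acaca, the acetyl-CoA carboxylase, had 118, 102 and 107 CPM in Kitl_OE, against the Egfp_OE values given above. It was not called with all libraries (log2 -0.42, edgeR adjusted p = 0.398) and was called without Egfp_OE replicate 2 (log2 -0.79, edgeR adjusted p = 0.00629).

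Of the 4 desaturase genes 1 was called, and it was higher. Fads2, the delta-6 desaturase of polyunsaturated fatty acids, had 274, 271 and 231 CPM in Kitl_OE, against 156, 56.6 and 137 CPM in Egfp_OE. All Kitl_OE libraries were above all Egfp_OE libraries, with a log2 fold change of 1.15 (SE 0.303, edgeR adjusted p = 0.0129) and of 0.83 without Egfp_OE replicate 2 (edgeR adjusted p = 0.00322). Fads1, the delta-5 desaturase that lies beside Fads2 on chromosome 19, had 355, 378 and 287 CPM in Kitl_OE, against 325, 255 and 287 CPM in Egfp_OE, and was not called (log2 0.23, edgeR adjusted p = 0.406). Scd1 and Scd2 were not called either, at log2 fold changes of -0.20 and -0.49 with all libraries and of -0.38 and -0.64 without Egfp_OE replicate 2 (edgeR adjusted p = 0.345 and 0.0508).

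**Figure D3:**
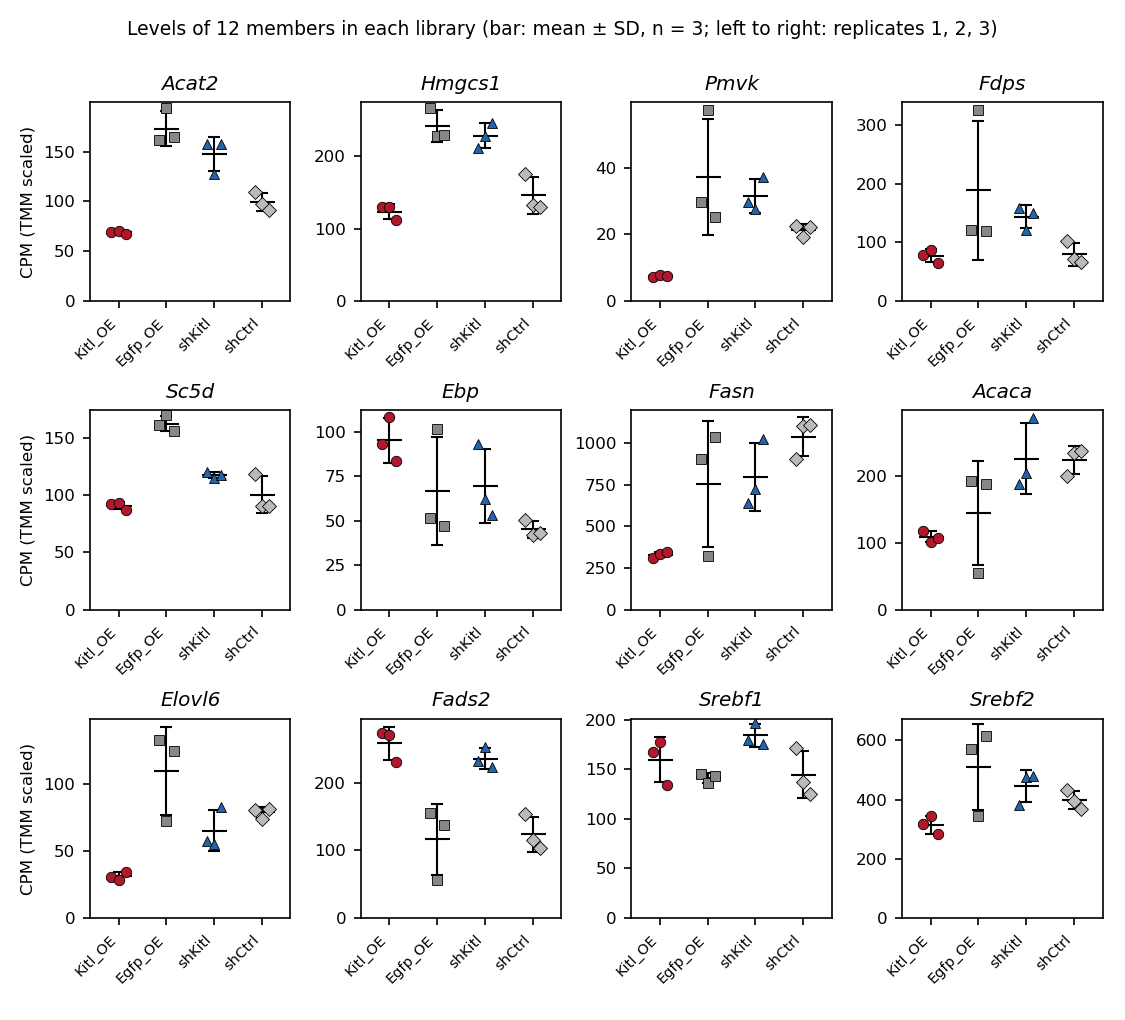
CPM (y axes, from 0) of 12 members in each of 3 libraries of Kitl_OE, Egfp_OE, shKitl and shCtrl, with mean ± SD; points run from replicate 1 to 3. Acat2, Pmvk and Sc5d are lower in every Kitl_OE library than in every Egfp_OE library, while Fasn and Acaca in Egfp_OE replicate 2 (322 and 55.3 CPM) lie far below the other Egfp_OE libraries.

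Among the regulators, Srebf2 had 316, 344.9 and 283 CPM in Kitl_OE, against 571, 345.1 and 613 CPM in Egfp_OE. The groups all but met at Kitl_OE replicate 2 and Egfp_OE replicate 2, and the log2 fold change was -0.69 (SE 0.210, edgeR adjusted p = 0.0242), or -0.90 without Egfp_OE replicate 2 (edgeR adjusted p = 0.000861). Srebf1 had 167, 177 and 134 CPM in Kitl_OE, against 145, 136 and 143 CPM in Egfp_OE, with overlap (log2 0.17, edgeR adjusted p = 0.419). Scap, which escorts the SREBP precursors, had 108, 128 and 104 CPM in Kitl_OE, against 134, 135 and 159 CPM in Egfp_OE; its libraries did not overlap but it was not called (log2 -0.33, edgeR adjusted p = 0.171). Insig1, which retains SCAP and is itself a known SREBP target, was not called (log2 -0.21, edgeR adjusted p = 0.524). These are transcript levels; processing of the SREBP proteins was not measured.

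The 3 transport genes were not called. Abca1, the exporter of cholesterol to apolipoproteins, had 46.8, 39.8 and 29.8 CPM in Kitl_OE, against 26.9, 10.0 and 15.4 CPM in Egfp_OE (log2 1.15, SE 0.626, edgeR adjusted p = 0.176). Its groups did not overlap, but its values spread widely within each. Stard4, which carries sterol between membranes, had a log2 fold change of -0.16. Abcg1, an exporter to lipoprotein particles, had 0, 0 and 2 counts in the Kitl_OE libraries and 4, 2 and 5 counts in the Egfp_OE libraries, too few to give a fold.

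Without Egfp_OE replicate 2, 15 members were lower and 2 were higher, against 19.6% and 19.8% of all genes. Acaca and Ebp were gained and Mvk was lost. Log2 fold changes without it were -1.23 for Acat2, -0.99 for Hmgcs1, -0.66 for Fdft1, -0.51 for Cyp51, -0.90 for Hsd17b7, -0.79 for Sc5d, -0.54 for Me1 and -2.03 for Elovl6, and all 8 remained called. Among members not called, Scap was at -0.36, Srebf1 at 0.16, Insig1 at -0.23 and Abca1 at 0.89 without it. The median of the sterol genes was then -0.45 and that of the fatty acid genes -0.64, so the order of the 2 medians changed. With all libraries and spike-in totals it changed too (-0.50 and -0.54). The pooled SD within groups of each library's median was 0.18 for the sterol and 0.30 for the fatty acid genes. When libraries were scaled by spike-in totals instead of TMM, 3 members remained lower (Acat2, Pmvk and Elovl6), against 8.45% of all genes, and none was higher. With spike-in totals and without Egfp_OE replicate 2, chosen after seeing the data, 10 sterol and 6 fatty acid genes were lower. There 1 sterol gene was higher, and of all genes 20.8% were lower and 7.97% higher. With TMM the number of members lower was 8, 9 and 8 without Kitl_OE replicates 1, 2 and 3 in turn. The shares of all genes lower were then 11.5%, 12.2% and 13.2%.

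The second comparison set the knockdown against its control. By edgeR no gene passed, members included (0% of all genes called, lowest adjusted p = 0.121). Yet 2417 genes (15.8% of all genes) and 21 of the 34 members had an unadjusted p under 0.05. Kitl, the target of the hairpin, did not pass either (log2 -1.46, edgeR adjusted p = 0.121), so a gene left uncalled here may still have changed. The fit shares its spread over all groups. Without Egfp_OE replicate 2 it called 0.218% of all genes higher and 0.301% lower. By limma on log2(TPM + 1) 7 genes were called. The direction of the sterol genes was uniform: all 18 had a log2 fold change above 0, against 54.4% of all genes, with a median of 0.63 and a range of 0.23 to 1.70. The median over all genes was 0.05. The shKitl libraries were all above all shCtrl libraries for 15 of the 18, against 11.0% of all genes, and were all below for none, against 8.64%. The exceptions, whose groups overlapped, were Idi1, Hsd17b7 and Sc5d. DESeq2 called 7 members higher, Acat2, Hmgcs1, Mvd, Tm7sf2, Nsdhl, Fads1 and Abcg1, and none lower, against 2.05% of its genes called higher.

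Nsdhl was the clearest sterol gene. It had 124, 98.7 and 94.6 CPM in shKitl, against 65.7, 47.9 and 44.2 CPM in shCtrl. The groups did not overlap and the fold was 2.01 (log2 1.01, SE 0.219, edgeR adjusted p = 0.147; DESeq2 adjusted p = 0.00811). Mvd had 88.0, 75.5 and 63.6 CPM in shKitl, against 49.0, 37.3 and 33.6 CPM in shCtrl (log2 0.92, edgeR adjusted p = 0.182; DESeq2 adjusted p = 0.0264). Hmgcs1 had 211, 227 and 245 CPM in shKitl, against 176, 133 and 130 CPM in shCtrl (log2 0.64, edgeR adjusted p = 0.177; DESeq2 adjusted p = 0.0264). Both were without overlap. Within shCtrl, replicate 1 held the highest level of each of these genes. Fdft1 showed the narrowest shKitl group, with 120, 121 and 119 CPM, against 89.4, 65.7 and 64.2 CPM in shCtrl (log2 0.72, edgeR adjusted p = 0.205). The widest fold of a sterol gene was that of Tm7sf2, which is low in all groups; it had 14.7, 13.6 and 6.50 CPM in shKitl, against 6.02, 2.64 and 1.99 CPM in shCtrl (log2 1.70, SE 0.544, edgeR adjusted p = 0.230; DESeq2 adjusted p = 0.0476). Pmvk had 29.6, 27.5 and 37.2 CPM in shKitl, against 22.6, 19.1 and 22.2 CPM in shCtrl (log2 0.56, edgeR adjusted p = 0.328).

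No fatty acid gene passed by edgeR, where the lowest adjusted p was 0.177. Fasn had 638, 726 and 1024 CPM in shKitl, against 903, 1101 and 1107 CPM in shCtrl, with overlap (log2 -0.38, edgeR adjusted p = 0.601). Log2 fold changes were -0.28 for Elovl6, -0.22 for Me1, -0.18 for Acly and 0.02 for Acaca. All 4 desaturases had higher values instead and none of their groups overlapped. Fads1 had 451, 544 and 396 CPM in shKitl, against 333, 232 and 211 CPM in shCtrl (log2 0.84, edgeR adjusted p = 0.177; DESeq2 adjusted p = 0.0189). Fads2 had 232, 252 and 223 CPM in shKitl, against 153, 115 and 103 CPM in shCtrl (log2 0.93, edgeR adjusted p = 0.233). Log2 fold changes were 0.77 for Scd1 and 0.68 for Scd2, whose sequences are alike, so that reads shared by both could be split. Over the 9 genes the median was 0.02, against 0.63 over the 18 sterol genes.

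No regulator was called in the knockdown. Log2 fold changes were 0.35 for Srebf1, 0.16 for Srebf2, 0.30 for Scap and 0.60 for Insig1, and the shKitl libraries lay wholly above shCtrl for Srebf1 alone. Abcg1 had 113, 150 and 67 counts in shKitl, against 19, 13 and 4 counts in shCtrl, which was the widest fold of all members (log2 3.17, SE 0.567, edgeR adjusted p = 0.121; DESeq2 adjusted p = 9.86e-06). The groups did not overlap, although Abcg1 was the lowest of the members. Abca1 had 27.5, 62.4 and 14.3 CPM in shKitl, against 28.6, 11.4 and 4.96 CPM in shCtrl, with overlap (log2 1.21, edgeR adjusted p = 0.365). Stard4 had a log2 fold change of 0.36 with no overlap.

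**Figure D4:**
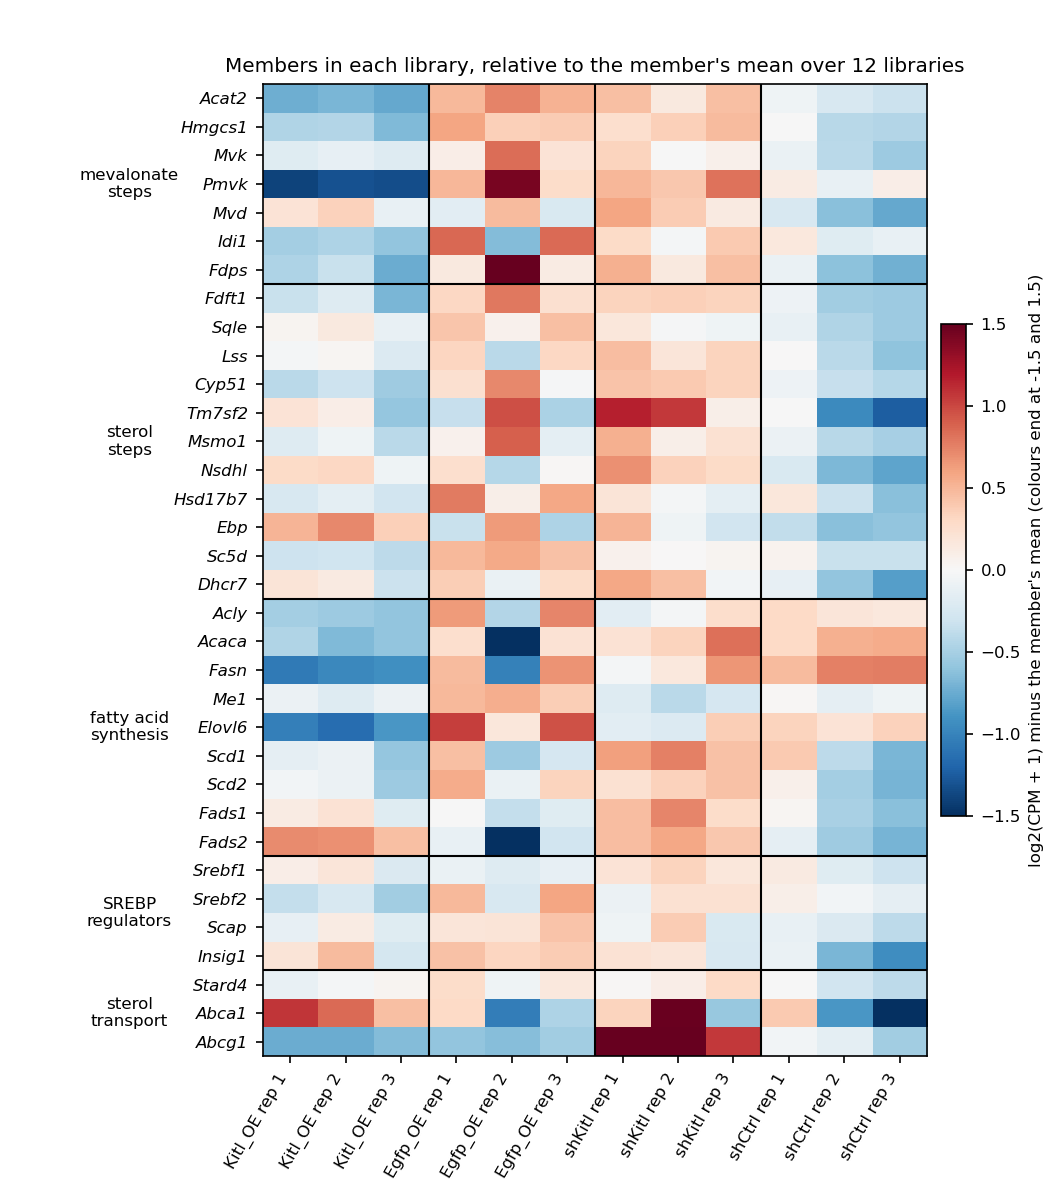
Log2(CPM + 1) of each member (rows, by role) minus its mean over the 12 libraries, in the libraries of Kitl_OE, Egfp_OE, shKitl and shCtrl (columns); red is above and blue below the member's mean. Most sterol rows are blue in Kitl_OE and in shCtrl replicates 2 and 3 and red in Egfp_OE and shKitl, and Egfp_OE replicate 2 departs from its group in Idi1, Fdps, Acaca and Fads2.

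The effects in the 2 designs were also compared by their difference. Kitl was raised in Kitl_OE and lowered in shKitl, so a gene that followed the Kitl level, in either direction, would show a difference too. Kitl itself did (2.52, edgeR adjusted p = 0.0011). The test therefore cannot tell an unlike response from a mirror-image response to Kitl. Nor can it tell either from a gap between the control lines, which enter the difference with opposite signs. The sterol median of Egfp_OE minus shCtrl was 0.70. The test of the difference called 12 members, all with the Kitl_OE effect below the shKitl effect, against 9.88% of all genes called in that direction. They were 5 mevalonate genes (Acat2, Hmgcs1, Mvk, Pmvk and Fdps), 4 later sterol genes (Fdft1, Cyp51, Msmo1 and Sc5d), the fatty acid genes Elovl6 and Scd2, and Abcg1. All 18 sterol genes had a difference below 0, against 54.4% of all genes, with a median of -1.14. Among the fatty acid genes Fads2 had a difference of 0.22 (edgeR adjusted p = 0.771), and Fasn one of -0.82 (edgeR adjusted p = 0.291). The number called was 19 without shCtrl replicate 1 and 22 without Egfp_OE replicate 2. In these fits 11.2% and 11.1% of all genes were called below 0. The difference was -0.85 for Srebf2 (edgeR adjusted p = 0.0780) and -0.17 for Srebf1 (edgeR adjusted p = 0.644).

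The control lines were also set against each other, since each Kitl comparison rests on its own control line. All 18 sterol genes had higher values in Egfp_OE than in shCtrl, with a median log2 fold change of 0.70, where 53.7% of all genes were above 0. With spike-in scaling, which lowered the median of all genes in this comparison to -0.34, against 0.05 with TMM, 17 of the 18 remained above 0 and their median was 0.26. Without Egfp_OE replicate 2, added after seeing the data, spike-in scaling left all 18 above 0, with a median of 0.57. The median of all genes was then -0.05. With TMM and all libraries the test called 2 members, both higher, against 1.25% of all genes called and 0.511% higher. Acat2 had 161, 194 and 165 CPM in Egfp_OE, against 109, 97.3 and 91.7 CPM in shCtrl (log2 0.80, SE 0.142, edgeR adjusted p = 0.0320). Sc5d had 161, 170 and 156 CPM in Egfp_OE, against 119, 90.9 and 90.7 CPM in shCtrl (log2 0.70, SE 0.138, edgeR adjusted p = 0.0386). Hmgcs1 came next (log2 0.72, edgeR adjusted p = 0.0510). The count of 2 was 0 without shCtrl replicate 2 or 3, Egfp_OE replicate 3 or any Kitl_OE library. It was 8 without shCtrl replicate 1, where 2.86% of all genes were called higher and 2.08% lower. Without Egfp_OE replicate 2 it was 6, against 1.17% higher and 0.986% lower. The fatty acid genes gave a median of 0.16, from -0.62 for Acaca to 0.63 for Scd2.

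Kitl_OE was then set against shCtrl, a comparison chosen after the data were seen, which shares shCtrl with the knockdown comparison and Kitl_OE with the overexpression comparison. It called 5 members higher and 7 lower, against 32.3% of all genes called, 15.8% higher and 16.5% lower. Of the 18 sterol genes 3 were higher (Mvd, Nsdhl and Ebp), 2 were lower (Acat2 and Pmvk), and the median was 0.05. Pmvk was at a log2 fold change of -1.50 (SE 0.273, edgeR adjusted p = 0.00208) and Acat2 at -0.53 (SE 0.142, edgeR adjusted p = 0.0151). Ebp was at 1.08 (SE 0.293, edgeR adjusted p = 0.0164). Among the fatty acid genes, Fasn was at -1.66 (SE 0.352, edgeR adjusted p = 0.00472), Elovl6 at -1.34 (edgeR adjusted p = 0.00163), Acaca at -1.04 (edgeR adjusted p = 0.0469) and Acly at -0.77 (edgeR adjusted p = 0.0389), while Fads2 was at 1.06 (edgeR adjusted p = 0.0199). Srebf2 was not called there (log2 -0.34, edgeR adjusted p = 0.233). Insig1 was higher (log2 0.70, edgeR adjusted p = 0.0449), and Abcg1 was lower, at 0, 0 and 2 counts in Kitl_OE.

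The balance of the 2 branches was described by the mean log2(TPM + 1) of the 18 sterol genes and of the 9 fatty acid genes in each library. The sterol mean was 5.60, 5.79 and 5.54 in the Kitl_OE replicates, against 6.26, 6.05 and 6.29 in the Egfp_OE replicates. It was 6.31, 6.27 and 6.23 in shKitl, against 6.06, 5.54 and 5.35 in shCtrl. Neither pair overlapped, and Kitl_OE lay within the range of shCtrl while the shKitl libraries lay close to Egfp_OE. An exact two-sided permutation test of 3 against 3 libraries cannot give a p below 0.1, so none is reported. The fatty acid mean was 6.82, 6.90 and 6.81 in Kitl_OE, against 7.67, 6.32 and 7.67 in Egfp_OE, which overlapped through Egfp_OE replicate 2. It was 7.30, 7.57 and 7.66 in shKitl, against 7.60, 7.23 and 7.05 in shCtrl, with overlap. The sterol mean minus the fatty acid mean was -1.20 ± 0.0770 in Kitl_OE and -1.02 ± 0.649 in Egfp_OE (SD, n = 3 each). It was -1.24 ± 0.227 in shKitl and -1.64 ± 0.0934 in shCtrl (SD, n = 3 each), where the 3 shKitl libraries were all above the 3 shCtrl libraries.

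**Figure D5:**
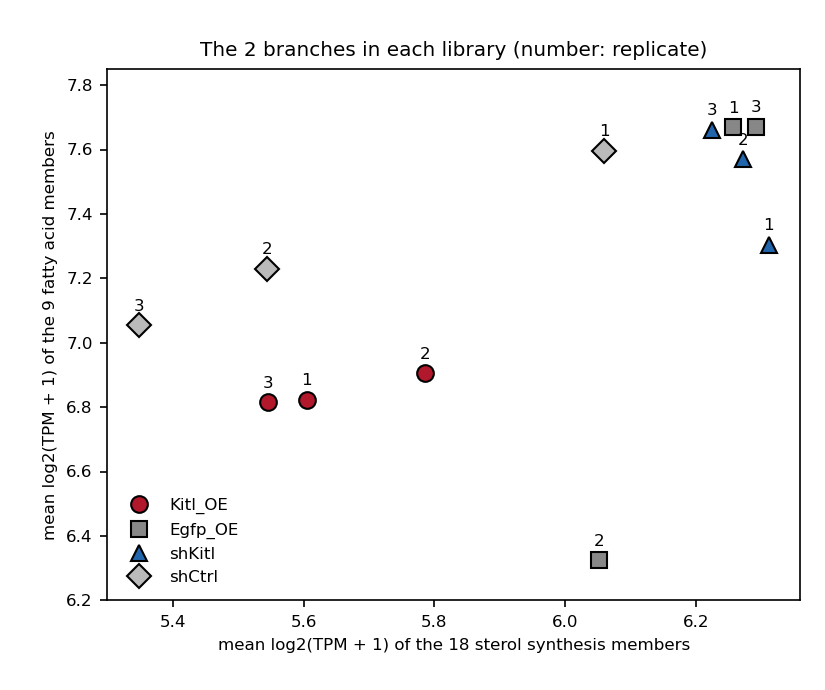
Mean log2(TPM + 1) of the 18 sterol synthesis genes (x axis) and of the 9 fatty acid genes (y axis) in each library of Kitl_OE, Egfp_OE, shKitl and shCtrl; numbers give the replicate. Kitl_OE (5.54 to 5.79) and shCtrl (5.35 to 6.06) lie mostly to the left of Egfp_OE (6.05 to 6.29) and shKitl, with shCtrl replicate 1 level with Egfp_OE replicate 2, which lies lowest on the y axis at 6.32.

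The sample descriptions carry a P number whose meaning the labels do not give, and it differs between groups. At P number 14 the sterol mean was 6.27 in the shKitl library and 6.06 in the shCtrl library, and at P number 15 it was 6.23 in shKitl and 5.54 in shCtrl. At P number 18 it was 5.60 in Kitl_OE and 6.05 in Egfp_OE, and at P number 19 it was 5.79 in Kitl_OE and 6.29 in Egfp_OE. The direction was thus the same at each shared number, while the remaining difference in P number cannot be told apart from the groups. Egfp_OE and shCtrl share no P number.

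Further genes of the same pathways came from lists outside the 34 members. Their counts stand against the 18.9% of all genes lower and 15.4% higher in this comparison. Among other sterol genes 7 of 16 tested were lower in Kitl_OE than in Egfp_OE and 1 was higher. Soat1, which esterifies cholesterol, was at a log2 fold change of -1.75, and the oxysterol hydroxylase genes Cyp7b1 and Cyp27a1 at -5.85 and 2.24. Of 18 genes of uptake and intracellular transport 3 were lower and 3 were higher, among them the lipoprotein receptor gene Vldlr at -2.42, Npc1, which exports cholesterol from lysosomes, at 1.24, Osbpl2, an oxysterol-binding protein gene, at 1.20, and the lipid transporter gene Abca3 at 1.45. Of 24 other fatty acid genes tested 8 were lower and 5 were higher, with the elongase genes Elovl4 at -5.10 and Elovl7 at -2.95, the acyl-CoA synthetase genes Acsl6 at -3.53 and Acsl4 at -1.13, and the dehydratase gene Hacd1 at 1.00. Of 18 other regulators tested 9 were higher and 2 were lower. They included Mid1ip1, an activator of acetyl-CoA carboxylase, at 1.97, the AMPK subunit gene Prkaa2 at 2.21, Nr1h3, which encodes the sterol sensor LXR alpha, at 1.90, the pseudokinase gene Trib3 at 1.52 and the lipin gene Lpin1 at 1.13. Cyp7b1, Cyp27a1, Elovl7, Acsl6 and Elovl4 were low in at least 1 group, with a mean under 1 CPM. Without Egfp_OE replicate 2, added after seeing the data, the counts were 7 lower and 2 higher for sterol, 3 and 4 for uptake and transport, 7 and 6 for fatty acid genes and 2 and 8 for regulators. In that fit 19.6% of all genes were lower and 19.8% higher. Of the genes named, Lpin1 was then not called (log2 0.96, edgeR adjusted p = 0.112) and Trib3 was at 2.31. In the knockdown edgeR called none of these genes, and the 16 other sterol genes were divided, with 8 above and 8 below 0 and a median log2 fold change of -0.01.

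Markers of other cell types were read in TPM beside these results. Stellate and fibroblast markers were present in all groups, although Des was low, at 0.515 to 6.79 TPM over all libraries. The sum of all 8 was 11427 to 13919 TPM in Kitl_OE and 2044 to 3021 TPM in Egfp_OE. Col1a1, Acta2 and Vim made up most of it, while Thy1 of the same list went the other way, at 3.26 to 11.9 TPM in Kitl_OE and 33.0 to 45.1 TPM in Egfp_OE. The sum was 3364 to 7352 TPM in shKitl and 2743 to 4198 TPM in shCtrl. The 6 mesothelial markers summed to 146 to 228 TPM in Kitl_OE and 19.1 to 25.0 TPM in Egfp_OE. Their sum was 130 to 182 TPM in shKitl and 107 to 136 TPM in shCtrl, so Egfp_OE was the lowest group. Upk3b was at 82.9 to 161 TPM in Kitl_OE against 0.0980 to 0.284 TPM in Egfp_OE, with Lrrn4 and Muc16 at or near 0. Msln was at 28.2 to 62.1 TPM in Kitl_OE and 14.9 to 19.2 TPM in Egfp_OE. It was at 81.1 to 151 TPM in shKitl and 95.2 to 131 TPM in shCtrl. The 5 blood markers summed to 27.7 to 40.0 TPM in Kitl_OE and 8.03 to 10.3 TPM in Egfp_OE. They summed to 9.75 to 24.3 TPM in shKitl and 6.85 to 15.1 TPM in shCtrl, while Ptprc was at most 0.0066 TPM in any library. Of 6 adipocyte markers, whose cells are rich in the fatty acid genes, Adipoq, Plin1, Cidec and Lep were at or near 0 in all libraries, and only Fabp4 passed 1 TPM in any library. Their sum was 0.531 to 2.79 TPM in Kitl_OE and 6.94 to 30.3 TPM in Egfp_OE, and 22.2 to 88.6 TPM in shKitl and 21.4 to 27.3 TPM in shCtrl. Fabp4 stood at 0.406 to 1.35 TPM in Kitl_OE and 6.62 to 29.6 TPM in Egfp_OE. The markers of hepatocytes, the other main lipogenic cell, summed to at most 0.504 TPM. Acinar and duct markers summed to 8.78 to 25.4 TPM over all libraries, from Cela1 and Krt19, with Cpa1, Epcam and Cdh1 near 0, and endothelial markers to 1.62 to 9.10 TPM, with Pecam1 and Cdh5 near 0. The part of the stellate, mesothelial and blood markers and of Fabp4 in the members' differences was not tested. In bulk RNA, fewer cells of a type and less RNA per cell cannot be told apart.

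Some counts could hold reads of other genes. By exonic length, 26.7% of Fdps overlapped Gm43738 and 12.1% of Tm7sf2 overlapped Vps51, both on the same strand, where no strand setting separates the reads. The other overlaps given here are with genes of the opposite strand, and the sources used here do not give the strand setting of the counting. Of these, 18.3% of Fdft1 overlapped Ctsb, 13.2% of Scap overlapped 5830462I19Rik and 12.1% of Hmgcs1 overlapped Gm48342. Idi1 overlapped Gm48574 over 9.21% of its length. For Acat2, Mvk, Pmvk, Sc5d, Fasn, Acly and Fads2 no exonic overlap was annotated, and for Elovl6 it was 0.529%.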

How the data were processed

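Poly(A) RNA of 12 libraries was sequenced. Per the submitters' processing notes, tools were STAR 2.5.2b, featureCounts of Subread 1.5.2 and DESeq2, on GRCm38/mm10. The deposited counts are raw reads per gene, and the deposited TPM values were scaled by the authors over genes and spike-ins. The 92 ERCC entries were kept out of the tests. Counts were tested with edgeR 4.0.16 (TMM, filterByExpr, robust quasi-likelihood fit of 4 groups, R 4.3.3) and Benjamini-Hochberg adjustment over 15271 genes, at a threshold of 0.05. The procedure was tested on simulated data. Alternatives were other scalings, filters and designs, DESeq2 1.42.0, limma 3.58.1 on log2(TPM + pseudocount), and leaving out each library. Positions and exonic lengths came from GENCODE M21, promoters from RefSeq. The named genes were all members and, of the other pathway lists, at most 5 called genes with the largest changes, plus Kitl; some of the other pathway genes are not reported here. Members and lists were chosen with earlier results of these data known. No replicates agreed within sampling noise.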

Additional observations from a re-analysis of the deposited data

Results flagged for a closer look

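For 12 of the 34 members the effect of Kitl_OE over Egfp_OE differed from that of shKitl over shCtrl by edgeR's quasi-likelihood test of the difference itself. The differences are given as the log2 effect of Kitl_OE minus the log2 effect of shKitl, and all 12 were below 0. A gene that followed the Kitl level, up or down, would show a difference too, since the 2 designs moved Kitl in opposite directions. A gene whose level differed between the control lines, Egfp_OE and shCtrl, could show one as well. The test cannot tell these apart. In the mevalonate steps the difference was -2.87 for Pmvk (edgeR adjusted p = 0.000742), -2.14 for Fdps (edgeR adjusted p = 0.0150), -1.90 for Acat2 (edgeR adjusted p = 0.000171), -1.61 for Hmgcs1 (edgeR adjusted p = 0.000860) and -1.09 for Mvk (edgeR adjusted p = 0.0299). In the later sterol steps it was -1.58 for Fdft1 (edgeR adjusted p = 0.00389), -1.42 for Cyp51 (edgeR adjusted p = 0.00560), -1.19 for Msmo1 (edgeR adjusted p = 0.0480) and -1.07 for Sc5d (edgeR adjusted p = 0.00451). In the fatty acid branch it was -1.54 for Elovl6 (edgeR adjusted p = 0.0100) and -1.17 for Scd2 (edgeR adjusted p = 0.0427). For Abcg1 it was -5.31 (edgeR adjusted p = 0.00981), a value that depends on how low counts are moderated, since Kitl_OE held 0, 0 and 2 counts. Without Egfp_OE replicate 2 the number called was 22, where 11.1% of all genes were called below 0 and 7.11% above it.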

How the results depend on the processing

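Of the values of the 34 members in the 2 Kitl comparisons under the alternatives, 1494 kept direction and call. The call was lost in 86 and gained in 23, and 25 changed sign. Kept values include those of members that stayed uncalled, and the main fit left 34 uncalled in the knockdown and 18 under overexpression. Only the members it called could lose the call. With spike-in totals, in Kitl_OE against Egfp_OE 3 members were lower (2 sterol, 1 fatty acid) and 0 higher, against 8.45% and 6.95% of all genes. In Egfp_OE against shCtrl 0 were called. The difference of effects called 3, where 4.96% of all genes were lower and 1.06% higher. DESeq2 called 7 members higher in the knockdown, against 2.05% of its genes. It called 11 in Egfp_OE against shCtrl, where 5.07% of its genes were higher and 4.13% lower. limma with a pseudocount of 1 or 0.1 called 9 lower under overexpression (2 fatty acid), against 13.6% and 15.1% of all genes. It called 0 in Egfp_OE against shCtrl, and with 1 it called 1 higher in the knockdown, against 0.0458%. Testing all genes with any count gave 1 member in the knockdown, where 0.037% of genes were higher and 0.0404% lower. It gave 1 in Egfp_OE against shCtrl (0.525% and 0.65%), and a minimum of 5 CPM gave 4 there (0.769% and 1.03%). Fitting only the groups compared gave 9 lower (2 fatty acid) and 0 higher, against 15.4% and 13.5% of all genes. It gave 0 in Egfp_OE against shCtrl. With only libraries of shared P number, which kept Egfp_OE replicate 2, 1 member, a sterol gene, was lower and Abca1 was higher. Of all genes 4.53% were lower and 4.29% higher in that fit. The sterol median was -0.68, 0 fatty acid genes were called (median -0.21), and Egfp_OE against shCtrl could not be fitted. Spike-in scaling without Egfp_OE replicate 2, chosen after seeing the data, called 10 sterol and 6 fatty acid genes lower, against 20.8% of all genes. It called 1 sterol gene and 0 fatty acid genes higher, against 7.97%, and 0 members in Egfp_OE against shCtrl. The sterol median was -0.74 and the fatty acid median -0.94, where the median of all genes was -0.29. Where not shown by fewer libraries, the cause was not tested.

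Leaving out each library in turn gave 8 to 15 members lower and 1 to 2 higher under overexpression, of which 5 to 10 were sterol and 2 to 5 fatty acid genes lower, with a sterol median of -0.73 to -0.45. Of all genes 11.5% to 19.6% were lower and 10.6% to 19.8% higher. Sterol genes lower numbered 6 and 5 without Kitl_OE replicates 1 and 3, and fatty acid genes lower 2 without any Kitl_OE library or Egfp_OE replicate 3. Leaving out a library gave 0 to 3 higher in the knockdown. There were 3 without Egfp_OE replicate 2 and 1 without shKitl replicate 3, against 0.218% and 1.44% of all genes. In Egfp_OE against shCtrl it gave 0 to 8 (8 without shCtrl replicate 1). In the difference it gave 9 to 22, where 5.95% to 11.2% of all genes were lower. Replicate numbers did not pair the libraries alike in the 2 Kitl comparisons. In Kitl_OE with Egfp_OE same-numbered deviations correlated at 0.03, 0.20 and 0.17, and those of unlike number at -0.18 to 0.11. In shKitl with shCtrl they correlated at 0.15, -0.26 and 0.53, and those of unlike number at -0.61 to 0.56. Libraries sharing a P number correlated at 0.56 and 0.32 in shKitl with shCtrl and at -0.0017 and -0.18 in Kitl_OE with Egfp_OE. With the replicate block 14 members were lower and 1 higher under overexpression, against 18.2% and 15.8% of all genes. In Egfp_OE against shCtrl 0 were called.

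Sign changes fell on members that were not called. Under overexpression, with a library left out, Mvd ranged from -0.027 to 0.37, Tm7sf2 from -0.57 to 0.44 and Scd1 from -0.38 to 0.14. Tm7sf2 was at 0.052 with spike-ins, and Scd1 at 0.27 and Dhcr7 at 0.052 with shared P numbers. With spike-ins without Egfp_OE replicate 2, Tm7sf2 was at 0.12, Nsdhl at -0.23, Fads1 at -0.13 and Srebf1 at -0.14. In the knockdown Hsd17b7 was at -0.063 with shared P numbers. Acaca was at -0.021 with DESeq2, -0.024 with its size factors, -0.028 with spike-ins, -0.029 with these without Egfp_OE replicate 2, -0.033 and -0.035 with limma, -0.013 with the replicate block, -0.019 with only the groups compared, and -0.20 to 0.13 with a library left out. Depth limits Abcg1 and Tm7sf2 most.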
